A study of Mus musculus with 6 samples.

Results

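The p53 targets of growth arrest are 9 genes, Cdkn1a, Ccng1, Btg2, Plk2, Plk3, Gadd45a, Sfn, Zmat3 and Phlda3, that were taken by name as textbook targets of p53 that act on cell division. The list was chosen with earlier results of these data known, so it was given no test of its own. All 9 were among the 53379 annotated genes, and all 9 passed the filter on low counts that left 14537 genes for testing. They were measured by total RNA sequencing in organoids, small epithelial structures cultured in matrigel, from pancreatic tumours of KPC mice on a C57/Bl6 background. In KPC mice Cre recombinase under the Pdx1 promoter, which is active in the pancreatic epithelium, switches on Trp53 R172H, so every library carries that mutant allele. The heterozygous group (n = 3, genotype Trp53LSLR172H/+; Pdx1-Cre) has a wild-type Trp53 allele as well as R172H, and the LOH group (loss of heterozygosity, n = 3, genotype Trp53LSLR172H/-; Pdx1-Cre) no longer has it. Organoid lines 6, 23 and 34 each gave 1 library per group, with no repeat of a line within a group. Sample descriptions in the LOH group end in a suffix whose meaning is not stated, and what it stands for cannot be told apart from genotype. The question put to these genes is how much of each transcript stays once the wild-type allele is lost.

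Wild-type p53 is a transcription factor that binds DNA as a tetramer and, after DNA damage or oncogene activity, switches on genes that halt division, repair DNA or kill the cell. The R172H change lies in the DNA-binding domain and removes most binding to these sites, so in a heterozygous cell the remaining wild-type allele is the source of normal p53. Among the arrest genes, Cdkn1a encodes p21, an inhibitor of cyclin-dependent kinases; Sfn (14-3-3 sigma) and Gadd45a hold cells before mitosis; the others act on kinases, phosphatases or mRNA that set the pace of the cycle.

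The p53 consensus half-site is a motif of 10 bases, and a full response element is a pair of them. In the RefSeq promoter windows of build GRCm38.p6 (300 bases, from 250 before to 50 after a transcription start), 8 members had an entry, with 9 windows in all. A pair of half-sites with no spacer and at most 1 mismatch over 20 bases was found in 2 of the 9 windows, against 29 of 32851 windows in the whole table (0.0883%). The motif is its own reverse complement, so a search of either strand finds the same places. The windows printed are those holding such a pair, the upstream start of Cdkn1a and the start of Ccng1, and the downstream start of Cdkn1a, which holds none. They are shown since Ccng1 fell in the LOH libraries and since transcripts from the 2 Cdkn1a starts are described separately with the values of that gene. Each sequence gives the 250 bases before the start, 5′ to 3′ on the gene's strand, with the matched pair in capitals. The regions are chr17:29090729-29090978 (plus strand) for the upstream Cdkn1a start, chr11:40755287-40755536 (minus strand) for Ccng1 and chr17:29093519-29093768 (plus strand) for the downstream Cdkn1a start.
Cdkn1a, upstream start: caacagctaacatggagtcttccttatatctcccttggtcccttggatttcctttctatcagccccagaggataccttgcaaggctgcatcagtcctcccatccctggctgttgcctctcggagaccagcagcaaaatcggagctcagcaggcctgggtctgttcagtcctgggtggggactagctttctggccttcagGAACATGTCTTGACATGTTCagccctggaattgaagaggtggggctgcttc
Ccng1: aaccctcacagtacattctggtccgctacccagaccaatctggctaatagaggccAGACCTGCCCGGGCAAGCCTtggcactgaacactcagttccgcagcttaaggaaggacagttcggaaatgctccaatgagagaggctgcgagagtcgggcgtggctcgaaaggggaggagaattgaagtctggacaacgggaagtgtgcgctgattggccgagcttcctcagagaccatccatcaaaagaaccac
Cdkn1a, downstream start: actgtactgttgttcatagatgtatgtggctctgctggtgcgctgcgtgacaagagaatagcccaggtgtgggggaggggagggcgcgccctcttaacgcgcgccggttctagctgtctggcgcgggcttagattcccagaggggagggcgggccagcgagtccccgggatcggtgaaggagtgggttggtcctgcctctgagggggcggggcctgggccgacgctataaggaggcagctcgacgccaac
The Cdkn1a match lies 51 to 32 bases before the upstream start, and the Ccng1 match 195 to 176 bases before its start. The closest pair in the downstream Cdkn1a window had 5 mismatches. An exact half-site, without its partner, is common in such windows (8.36% of all), and 3 member windows held at least 1, those of Gadd45a, Ccng1 and the upstream start of Cdkn1a. The Gadd45a window came no closer to a pair than 3 mismatches, those of Btg2 and Sfn 4, and those of Plk2, Plk3 and Phlda3 5. Among 21 other p53 targets with an entry, 1 of 29 windows held a pair, at Rps27l. A match is a run of letters and no measurement of binding, and such elements also lie outside these windows.

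The libraries held 13680458 to 27917277 expected counts, and 3 counts corresponded to 0.1 to 0.223 CPM (expected counts per 1000000 of the TMM-scaled library size). Ribosomal RNA-like transcripts made up 24.0% to 29.7% of a heterozygous library and 29.3% to 34.7% of an LOH library, and without those genes the count of members called was also 4. Trp53, the altered gene, ranged from 76.3 to 86.5 CPM in heterozygous and from 47.4 to 73.5 CPM in LOH libraries (log2 fold change -0.47, edgeR adjusted p = 0.227; without LOH line 6 -0.72 and 0.0368, in a range up to 0.714 over 19 alternatives), and counts per gene cannot tell its mutant from its wild-type transcripts. Without LOH line 6 edgeR called 2449 of 15132 genes, against 757 of 14537 with all libraries. All 8 ductal epithelium markers were expressed, with a summed level of 5511 to 6300 CPM in the heterozygous and 5759 to 11335 CPM in the LOH libraries. Fibroblast markers (8 genes) summed to at most 0.1 CPM in the heterozygous and 0.512 to 1.11 CPM in the LOH libraries, with Col3a1 at 0. Leukocyte markers (6 genes) summed to 1.73 to 1.94 and 3.03 to 14.7 CPM, nearly all of it Cd68, with Adgre1 and Lyz2 at 0. Endothelial markers reached at most 0.378 CPM, acinar and islet markers at most 2.44 CPM, and squamous markers 13.8 to 14.4 and 22.0 to 24.5 CPM. Most of the squamous sum was Ivl (9.25 to 11.7 and 18.5 to 21.7 CPM), while Krt5, Krt17 and Trp63 did not pass the filter on low counts. The part of such cells in the results was not tested.

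Of the 9 arrest genes, 4 fell in the LOH organoids: Phlda3, Ccng1, Plk2 and Zmat3, by 7.52-, 4.49-, 3.85- and 3.79-fold between the group means in CPM. The other members did not pass the test, and they include Cdkn1a and Sfn, the members best known as p53-driven arrest genes. Btg2 had the opposite sign, with a higher level in the LOH library of every line. In the edgeR quasi-likelihood test, with Benjamini-Hochberg adjustment over all 14537 genes and a threshold of 0.05, 5.21% of all genes were called and 1.66% were called lower. When the organoid line was a block, Phlda3, Plk2 and Zmat3 passed (3 of 9 members), where 1.47% of all genes were called and 0.248% called lower. In CPM the groups did not overlap for 6 of 9 members, Cdkn1a and Btg2 besides the 4 that were called, against 32.8% of all genes. The median log2 fold change of the 9 was -0.61, beside 0.06 over all genes tested. In bulk RNA, fewer cells making a transcript and less of it per cell cannot be told apart.

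**Figure D1:**
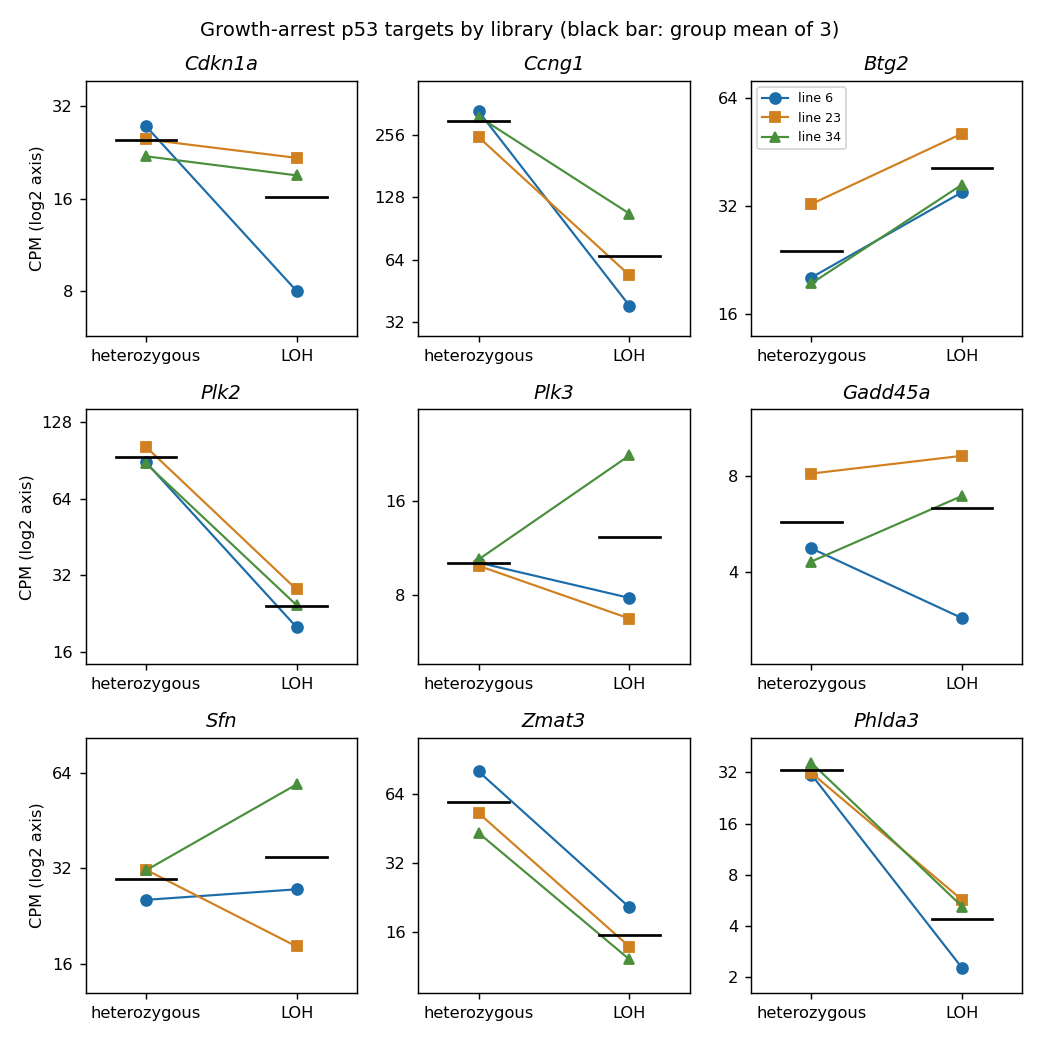
CPM of each of the 9 genes (log2 axis) in the heterozygous and the LOH library of each organoid line, joined by a line. Black bars mark the group means of 3 libraries. Plk2, Zmat3, Ccng1 and Phlda3 drop in each line, Btg2 sits higher in each LOH library, and Plk3, Gadd45a and Sfn spread apart in the LOH libraries.

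Cdkn1a (ENSMUSG00000023067.13; chromosome 17, 29090976 to 29100727, plus strand, GRCm38) encodes p21, which binds cyclin-CDK complexes and stops entry into S phase. In the order of lines 6, 23 and 34, heterozygous libraries had 27.5, 24.9 and 22.0 CPM, and LOH libraries 8.03, 21.7 and 19.0 CPM. All 3 LOH libraries were below all 3 heterozygous ones, but lines 23 and 34 differed by -0.20 each on the log2 scale and line 6 by -1.77. The means were 24.8 ± 2.78 and 16.3 ± 7.25 CPM (SD, n = 3 each), and the log2 fold change was -0.61 (SE 0.36, 95% interval -1.47 to 0.25, edgeR adjusted p = 0.339). Without LOH line 6 it was -0.32, again without passing (edgeR adjusted p = 0.259). Over 19 alternatives the adjusted p ran from 0.0542, by limma on log2(TPM + 1), where the log2 fold change was -1.12, to 0.532, by edgeR without both libraries of line 34.

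Cdkn1a has 3 annotated transcripts. The main transcript (ENSMUST00000023829.6), whose start is the downstream one shown in sequence above, had 25.8, 24.2 and 20.7 CPM in the heterozygous and 8.03, 21.7 and 19.0 CPM in the LOH group, so its groups overlapped. The transcript from the upstream start (ENSMUST00000119901.7), the start that follows the matched pair, had 30.3, 7.46 and 20.3 expected counts in the heterozygous libraries and was listed at 0 in all 3 LOH libraries. Its level was 0.747 ± 0.236 CPM (SD, n = 3) in the heterozygous group, a mean 5.24-fold over a floor of 3 counts in each LOH library. Its start is that of a later version of the transcript (922 bases long, against 748 in the deposited table). A further transcript that starts inside the gene (ENSMUST00000122348.1) had 20.9, 2.11 and 16.8 expected counts and was also listed at 0 in every LOH library. Its heterozygous mean was 3.31-fold over the same floor, but heterozygous line 23 was itself below 3 counts. The starts given for this and the main transcript are also those of later versions (1172 against 857 bases, and 1913 against 1910). By share of the gene's TPM the main transcript took 84.6%, 92.2% and 85.9% in the heterozygous libraries and 100% in each LOH library. Both minor transcripts stayed under 10% of the gene, were picked out after their values were seen, and rest on RSEM's division of reads among overlapping models, so an exact 0 can be a failed estimate. The group difference of these transcripts was not tested. An annotated gene on the opposite strand, AC167363.2, overlaps Cdkn1a.

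**Figure D2:**
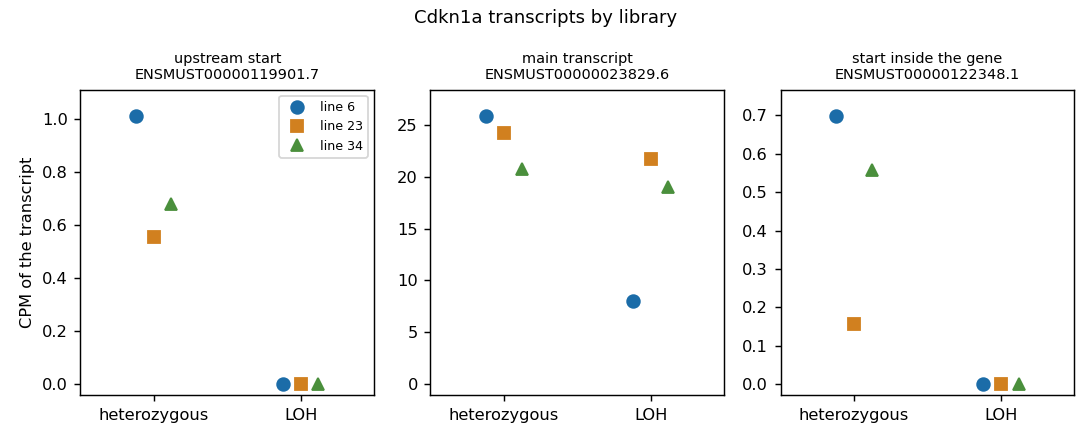
CPM of the 3 Cdkn1a transcripts (linear axes, each with its own range) in the 6 libraries, marked by organoid line. The transcript from the upstream start and the one that starts inside the gene sit at 0 in all 3 LOH libraries, while the main transcript stays at 19.0 to 21.7 CPM in LOH lines 23 and 34 and at 8.03 CPM in LOH line 6.

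Sfn (ENSMUSG00000047281.3; chromosome 4, 133600556 to 133602168, minus strand) encodes 14-3-3 sigma, which keeps cyclin B-CDK1 out of the nucleus and is made mainly by epithelial cells. Heterozygous levels were 25.5, 31.7 and 31.5 CPM and LOH levels 27.5, 18.2 and 58.8 CPM. The groups overlapped, with LOH line 23 lowest and LOH line 34 highest of the 6 libraries. Its log2 fold change was 0.24 (SE 0.42, 95% interval -0.74 to 1.22, edgeR adjusted p = 0.75).

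Gadd45a (ENSMUSG00000036390.8; chromosome 6, 67035096 to 67037457, minus strand) encodes a stress sensor that binds PCNA and the CDK1 complex. It had 4.74, 8.16 and 4.31 CPM in the heterozygous group and 2.85, 9.29 and 6.94 CPM in the LOH group. LOH line 6 was the lowest and LOH line 23 the highest of the 6, and line 23 was also the highest of the heterozygous libraries. The log2 fold change was 0.16 (SE 0.48, 95% interval -0.97 to 1.29, edgeR adjusted p = 0.858). Its main transcript (ENSMUST00000043098.8) held 66.1% to 83.8% of the gene's TPM. Retained-intron transcripts took up to 24.4% (ENSMUST00000151958.1, heterozygous line 6) and up to 12.0% (ENSMUST00000126194.1, LOH line 34). On the opposite strand E230016M11Rik overlaps Gadd45a, with 4 to 27 counts per library.

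Of the 2 polo-like kinases Plk2 fell and Plk3 did not pass the test, and the difference between them was not tested. Plk2 (ENSMUSG00000021701.8; chromosome 13, 110395046 to 110400844, plus strand), a kinase of centriole duplication and of the response to stress, had 89.0, 102.3 and 88.1 CPM in the heterozygous libraries. The LOH libraries had 20.02, 28.2 and 24.4 CPM, so the lowest heterozygous level was over the highest LOH level by a wide margin in all lines. Plk2 had the smallest SE of the 9 members (log2 fold change -1.94, SE 0.20, edgeR adjusted p = 0.0122, and 0.0357 with the line as a block), with line ratios of -2.15, -1.86 and -1.85 on the log2 scale. Its main transcript held 82.8% to 90.5% of the gene's TPM in every library. Genes of chromosome 13 with a mean of at least 5 CPM had a median log2 fold change of -0.45 (line ratios -0.51, -0.14 and -0.78), smaller than that of Plk2 in each line.

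Plk3 (ENSMUSG00000028680.14; chromosome 4, 117128655 to 117133963, minus strand), a kinase that can phosphorylate p53 and CDC25 phosphatases, had 10.2, 9.94 and 10.4 CPM in the heterozygous libraries. In the LOH libraries it had 7.86, 6.76 and 22.3 CPM, lower than the heterozygous level in lines 6 and 23 and higher in line 34. The log2 fold change was 0.27 (SE 0.46, 95% interval -0.82 to 1.37, edgeR adjusted p = 0.74). The heterozygous levels had a coefficient of variation (SD as a percent of the mean) of 2.32% and the LOH levels 70.5%. The main Plk3 transcript (ENSMUST00000076859.11) held 39.1% to 88.3% of the gene's TPM. ENSMUST00000147730.1 was listed at 0 in heterozygous line 6 and in LOH lines 6 and 23, and took 52.1% in heterozygous line 23. The processed transcript ENSMUST00000126135.1 took 8.46% to 17.4%. Genes of chromosome 4, which holds Plk3 and Sfn, had a median log2 fold change of -0.34 (lines -0.35, -0.48 and -0.27), while both genes were higher in LOH line 34. The part of chromosome-wide shifts in the values of Plk2, Plk3 and Sfn was not tested. Tctex1d4 overlaps Plk3 on the opposite strand, with at most 10 counts in any library.

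Ccng1 (ENSMUSG00000020326.7; chromosome 11, 40748552 to 40755311, minus strand) encodes cyclin G1, which recruits the phosphatase PP2A and acts on MDM2. It had 331, 249 and 312 CPM in the heterozygous libraries. Its LOH libraries had 38.4, 53.8 and 106.5 CPM, so LOH line 34 kept the most, still under every heterozygous library. The means were 297.4 ± 43.1 and 66.2 ± 35.7 CPM (SD, n = 3 each). The drop on the log2 scale was graded by line, at -3.11, -2.21 and -1.55 in lines 6, 23 and 34. Ccng1 fell in the unblocked edgeR test (log2 fold change -2.17, SE 0.39, adjusted p = 0.0314) but did not pass with the line as a block (adjusted p = 0.0573), nor without LOH line 23 (adjusted p = 0.0766) or without both libraries of line 6 (adjusted p = 0.0545).

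Zmat3 (ENSMUSG00000027663.12; chromosome 3, 32334792 to 32366014, minus strand) encodes a zinc-finger protein that binds RNA and regulates splicing. It had 80.1, 52.8 and 43.2 CPM in the heterozygous and 20.5, 13.8 and 12.2 CPM in the LOH group. The order of the lines was the same in both groups, and the line ratios on the log2 scale were close, at -1.96, -1.93 and -1.82. Zmat3 fell by 1.92 on the log2 scale (SE 0.32, edgeR adjusted p = 0.0267, and 0.0358 with the line as a block), though not without LOH line 23 (adjusted p = 0.0647). Its reads divided between a pair of long transcripts of similar length, ENSMUST00000029199.10 and ENSMUST00000168566.2, whose shares of the gene's TPM in the LOH libraries ran from 29.9% to 91.8% and from 0.87% to 61.9% (neither share was tested). A shorter retained-intron transcript (ENSMUST00000195055.1) had 2.83 ± 0.194 CPM in the heterozygous and 0.482 ± 0.107 CPM in the LOH group (SD, n = 3 each), and it was lower in each line.

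Phlda3 (ENSMUSG00000041801.5; chromosome 1, 135766119 to 135769136, plus strand) encodes a small pleckstrin-homology protein that competes with AKT for membrane lipids. It had the lowest log2 fold change of the 9. Heterozygous libraries had 31.1, 31.8 and 36.4 CPM and LOH libraries 2.27, 5.70 and 5.22 CPM, from 39, 151 and 112 counts. LOH line 6 was again the lowest, and the highest LOH library was far below the lowest heterozygous one. Phlda3 fell with a log2 fold change of -2.90 (SE 0.36, 95% interval -3.76 to -2.05, edgeR adjusted p = 0.0164, and 0.0341 with the line as a block). The main transcript (ENSMUST00000038945.5) held 87.4%, 79.4% and 90.5% of the gene's TPM in the heterozygous and 50.2%, 71.7% and 66.3% in the LOH libraries. A shorter processed transcript (ENSMUST00000136445.1) took the rest, and its own level was also lower, at 1.68 ± 0.659 CPM in the heterozygous and 0.643 ± 0.0926 CPM in the LOH group (SD, n = 3 each). The transcript shares were not tested.

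Btg2 (ENSMUSG00000020423.6; chromosome 1, 134075170 to 134079120, minus strand) encodes an antiproliferative protein that recruits the CCR4-NOT deadenylase to mRNA. It is a p53 target and also an early response gene to growth factors. It had 20.3, 32.4 and 19.5 CPM in the heterozygous and 35.0, 50.9 and 36.7 CPM in the LOH libraries. Each LOH library was above every heterozygous one, with line ratios of 0.79, 0.65 and 0.91 on the log2 scale. The log2 fold change was 0.77 (SE 0.27), at an unadjusted p of 0.0259 that did not pass adjustment (edgeR adjusted p = 0.139, and 0.159 with the line as a block). Beside it, 12 of 12 tested immediate early genes (of 14 listed) were above 0, where 7850 of all 14537 genes were. Their median log2 fold change was 1.005, with median line ratios of 0.71, 0.49 and 2.05 in lines 6, 23 and 34. Some of the 12 were below 0 in line 23, and not all were above 0 in line 6. Of the 12, 2 rose, beside 5.21% of all genes called in either direction. The 2 were Egr1, a growth-factor-induced transcription factor (2.002, edgeR adjusted p = 0.0399), and Junb, a subunit of AP-1 (1.07, edgeR adjusted p = 0.0474). Over 19 alternatives Egr1 passed in 11 and Junb in 8. With the line as a block 0 of the 12 passed (edgeR adjusted p = 0.118 for Egr1 and 0.111 for Junb). In that fit 6 of the 12 had an unadjusted p under 0.05, beside 2910 of all 14537 genes. The part of a growth-factor response in the Btg2 level was not tested.

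**Figure D3:**
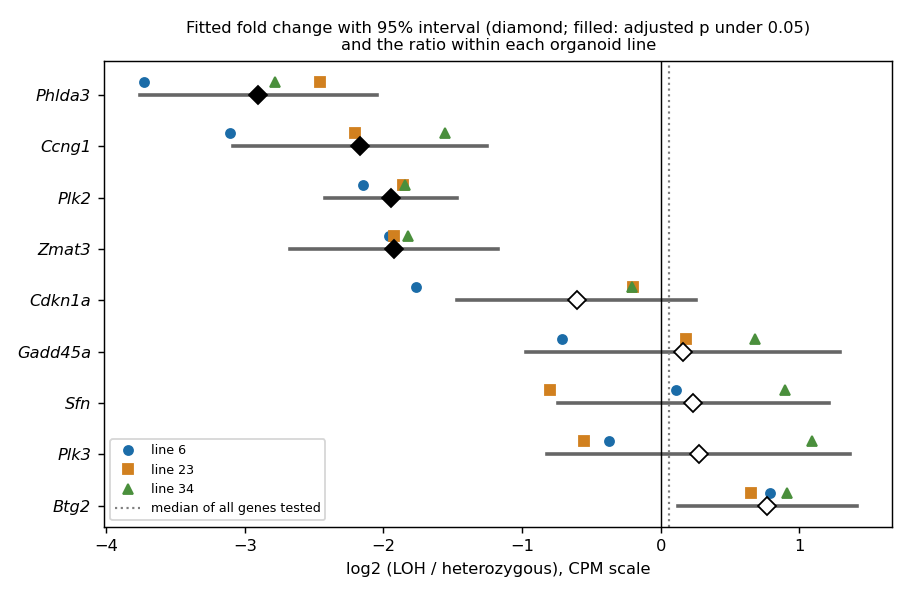
Fitted log2 ratio of LOH to heterozygous for each member with its 95% interval (diamonds, filled where the adjusted p was under 0.05), and the ratio within each organoid line (coloured marks). Phlda3, Ccng1, Plk2 and Zmat3 lie left of 0 in all lines, Btg2 lies right of 0 in all lines, and the lines of Plk3, Gadd45a and Sfn fall on both sides.

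The log2 ratios of the 9 genes varied over the organoid lines. Each ratio rests on 1 library per group, so a line effect cannot be told apart from variation between libraries. Among the LOH libraries line 6 had the lowest CPM for 6 of the 9 members. The median log2 ratio of the 9 was -1.77, -0.80 and -0.20 in lines 6, 23 and 34. Those values are the ratios of Cdkn1a, Sfn and Cdkn1a in that order, and neither gene was called. The medians over all tested genes in the same lines were -0.01, 0.03 and 0.06. For the 4 called members the range over lines was narrow for Zmat3 and Plk2 and wider for Phlda3 and Ccng1. The coefficient of variation of CPM went from 11.2% in the heterozygous to 44.6% in the LOH libraries for Cdkn1a and from 12.0% to 61.1% for Sfn, while for Zmat3 it was 32.6% and 28.5% and for Btg2 30.2% and 21.4%.

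Per length, in TPM (RSEM's length-scaled abundance), Ccng1 was the most abundant member in the heterozygous libraries (101.5 ± 25.0 TPM), followed by Plk2 (42.5 ± 3.98 TPM), Phlda3 (32.3 ± 2.04 TPM), Sfn (22.8 ± 0.567 TPM) and Cdkn1a (17.6 ± 4.09 TPM, SD, n = 3 each). The lower positions went to Btg2 (10.4 ± 2.42 TPM), Zmat3 (10.2 ± 4.43 TPM), Gadd45a (6.79 ± 2.08 TPM) and Plk3 (5.27 ± 0.488 TPM), and neighbours in the order from Btg2 down to Plk3 did not differ beyond their SDs. In the LOH libraries the order by TPM was Sfn (20.1 ± 10.7), Ccng1 (16.5 ± 7.48), Btg2 (13.6 ± 2.97), Plk2 (8.72 ± 1.24), Cdkn1a (7.84 ± 3.22), Gadd45a (5.49 ± 2.64), Plk3 (4.66 ± 2.98), Phlda3 (3.81 ± 1.146) and Zmat3 (1.89 ± 0.724). There Sfn, Ccng1 and Btg2 did not differ beyond their SDs, and neither did neighbours in the order from Plk2 down to Phlda3. Phlda3 went from the third place to the eighth.

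The 9 genes summed to 289.5, 222.8 and 235.8 TPM in the heterozygous libraries and to 64.9, 79.3 and 103.8 TPM in the LOH libraries. Ccng1 made up 43.8%, 34.5% and 42.8% of the heterozygous sum and 16.6%, 17.4% and 24.1% of the LOH sum. The share of Sfn was 7.72%, 10.1% and 9.94% in the heterozygous and 27.4%, 13.5% and 30.6% in the LOH libraries. For Btg2 the shares were 3.47%, 5.83% and 3.47% against 19.7%, 21.3% and 10.8%. On the TPM scale the median of all genes was lower in LOH as well (-0.35 in log2(TPM + 1)), so a difference in TPM includes that shift, and the tests above are on the CPM scale.

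**Figure D4:**
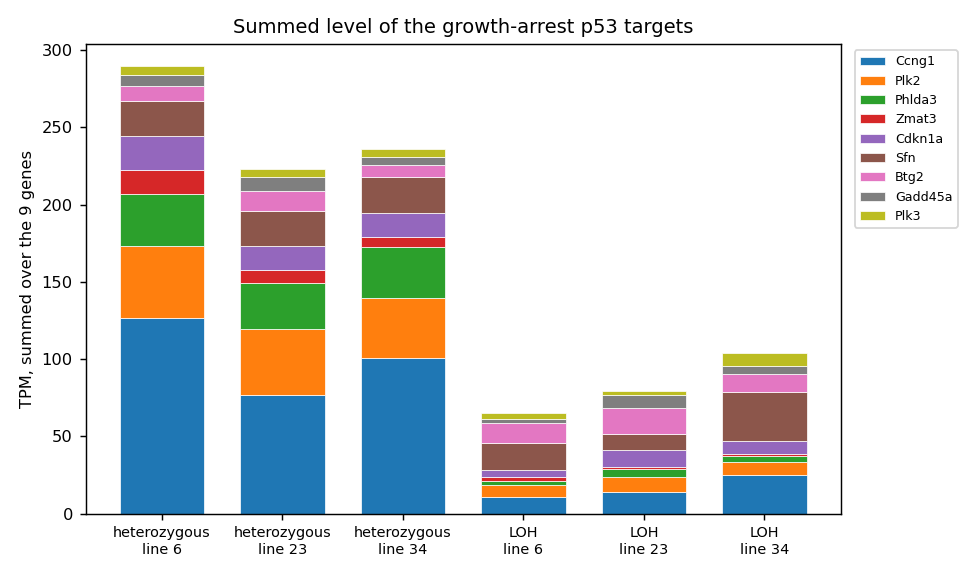
Stacked TPM of the 9 genes in each library (bars start at 0). The heterozygous bars reach 222.8 to 289.5 TPM and the LOH bars 64.9 to 103.8 TPM, and the Ccng1, Plk2 and Phlda3 segments are shorter in each LOH bar, while the Sfn segment ranges from 10.7 to 31.8 TPM among the LOH bars.

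Of 29 further targets of feedback, cell death, DNA repair and metabolism, all tested, 6 fell, 0 rose and 23 did not pass, beside the 1.66% of all genes called lower. In CPM 12 of the 29 had groups that did not overlap, beside 32.8% of all genes. Their median log2 fold change was -0.36. Mdm2, the ubiquitin ligase that degrades p53, had 74.0, 68.6 and 68.5 CPM in the heterozygous and 22.2, 30.6 and 35.1 CPM in the LOH libraries (log2 fold change -1.26, SE 0.22, edgeR adjusted p = 0.0284). Among 10 cell death genes 3 fell. Eda2r, a member of the TNF receptor family, went from 16.3, 13.6 and 15.0 CPM to 0, 0.0755 and 0.466 CPM (0, 2 and 10 counts; log2 fold change -6.31, SE 0.84, edgeR adjusted p = 0.0176). Bax, which permeabilizes mitochondria, fell by 1.87 on the log2 scale (edgeR adjusted p = 0.0164), and Aen, an apoptosis-enhancing nuclease, by 1.96 (edgeR adjusted p = 0.0489). Pmaip1, which encodes the BH3-only protein NOXA and is named after its values were seen, was higher in each LOH library than in any heterozygous one (14.0, 13.1 and 11.05 against 16.01, 41.4 and 47.1 CPM). Its log2 fold change of 1.45 missed the threshold in edgeR (adjusted p = 0.0794) and passed in DESeq2 (adjusted p = 0.00804) and in edgeR without LOH line 6 (adjusted p = 0.0146), in a range up to 0.403 over 19 alternatives. The fit without LOH line 6 called 2449 of 15132 genes. Of 7 genes listed under DNA repair, Rps27l, a ribosomal-protein-like gene (-1.45, edgeR adjusted p = 0.0428), and Ercc5, an endonuclease of nucleotide excision repair (-0.83, edgeR adjusted p = 0.0481), fell. Over 19 alternatives Rps27l passed in 11 and Ercc5 in 8. Of 8 metabolic targets 0 passed in edgeR, and 1 passed in DESeq2. In edgeR 2 of the 8, of opposite signs, had an unadjusted p under 0.05, beside 3681 of all 14537 genes. With the line as a block 1 of the 29 passed, Eda2r (edgeR adjusted p = 0.0423), and Mdm2 had an adjusted p of 0.0905. In that fit 9 of the 29 had an unadjusted p under 0.05, beside 2910 of all 14537 genes.

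The nearest relatives of the members were looked up in the same results. Of 22 paralogs 21 were tested and 1 passed, upward, beside 5.21% of all genes called in either direction. With the line as a block 0 of the 21 passed, with 3 at an unadjusted p under 0.05, beside 2910 of all 14537 genes. Ccng2, encoding cyclin G2, had 11.1, 16.2 and 11.3 CPM in the heterozygous and 33.8, 44.4 and 66.6 CPM in the LOH group, the opposite direction to Ccng1. Ccng2 rose (log2 fold change 1.91, SE 0.31, edgeR adjusted p = 0.0257, and 0.0666 with the line as a block). By length-scaled abundance Ccng1 exceeded Ccng2 in every heterozygous library (126.7, 76.8 and 101.0 against 6.44, 6.61 and 4.83 TPM), whereas in the LOH libraries they had 10.8, 13.8 and 25.0 against 12.5, 15.7 and 20.4 TPM. Cdkn1b, encoding the CDK inhibitor p27, had 35.6, 42.8 and 40.1 CPM in the heterozygous and 45.6, 53.004 and 178.8 CPM in the LOH libraries, where LOH line 34 stood apart, and it was not called (log2 fold change 1.23, edgeR adjusted p = 0.197). Among the most abundant relatives of the other members, Btg1 (0.64), Plk1 (-0.62), Gadd45b (-0.61), Ywhaz (0.15), Zmat2 (-0.28) and Phlda1 (0.39, all log2 fold changes) did not pass, at edgeR adjusted p-values from 0.11 for Gadd45b to 0.678 for Ywhaz. Gadd45b passed in DESeq2 (adjusted p = 0.0374) and by limma on log2(TPM + 1) and log2(TPM + 0.1) (adjusted p = 0.0282 and 0.0289). Without LOH line 6, Btg1 (0.80, edgeR adjusted p = 0.0478) and Plk1 (-1.07, edgeR adjusted p = 0.0464) passed, in a fit that called 2449 of 15132 genes.

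The machinery that these inhibitors act on was measured in the same fit. Of 22 genes of cyclins, CDKs and their partners 1 fell, Cdk4, the kinase of cyclin D and a partner of p21 (201.2, 238.5 and 231.7 CPM in the heterozygous, 119.0, 120.2 and 100.1 CPM in the LOH libraries; log2 fold change -0.98, edgeR adjusted p = 0.0306). With the line as a block Cdk4 did not pass (edgeR adjusted p = 0.105). In that fit 8 of the 22 had an unadjusted p under 0.05, beside 2910 of all 14537 genes. Over all genes 1.66% were called lower without the block. Of the 22, 17 had a log2 fold change below 0, where 6687 of all 14537 genes did. The median of the 22 was -0.44, beside 0.06 over all genes tested. Of the 4 INK4 inhibitors, which block CDK4 by another route than p21, 0 passed in edgeR and 1 passed in DESeq2. In edgeR 1 of the 4 had an unadjusted p under 0.05, beside 3681 of all 14537 genes. Cdkn2a, whose locus encodes p16 and ARF, had 37.4, 36.0 and 33.9 CPM in the heterozygous and 51.3, 53.4 and 65.7 CPM in the LOH libraries (log2 fold change 0.67, edgeR adjusted p = 0.0787). Cdkn2a, named after its values were seen, passed in DESeq2 (adjusted p = 0.0134) and in edgeR without LOH line 6 (adjusted p = 0.0445), in a range up to 0.46 over 19 alternatives. The fit without LOH line 6 called 2449 of 15132 genes.

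**Figure D5:**
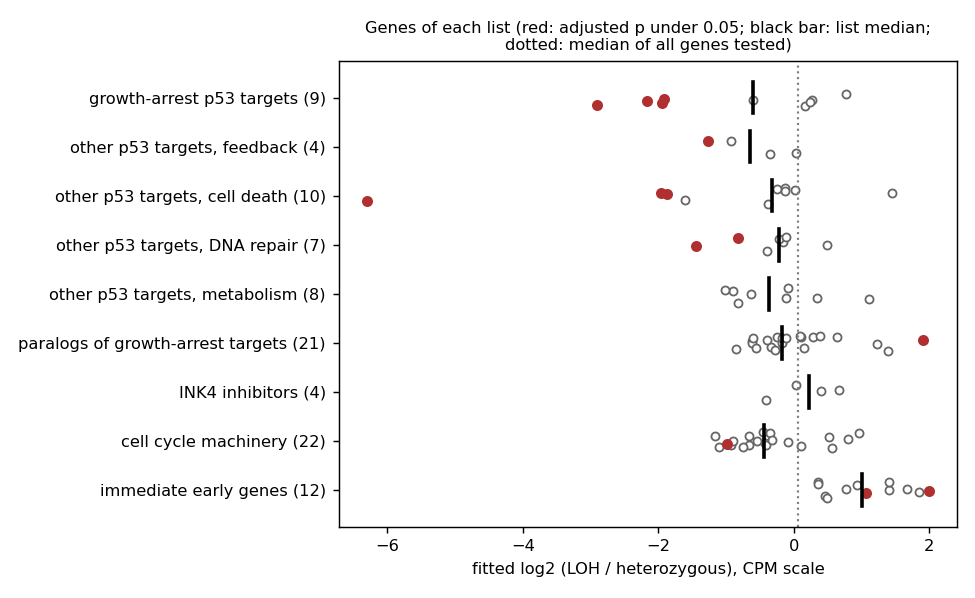
Fitted log2 ratio of LOH to heterozygous for every tested gene of each list (red, adjusted p under 0.05), with the list median (black bar) and the median of all genes tested (dotted line). The 9 arrest genes split into 4 that lie at -1.92 or below and 5 between -0.61 and 0.77.

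The calls rest on few libraries. Without any 1 of the heterozygous libraries, or without both libraries of line 23 or of line 34, edgeR called 0 of the 9 members and 0 of all genes, with 4 or 5 members at an unadjusted p under 0.05, whereas the log2 fold changes of the 4 called members stayed between -3.17 and -1.66. In those fits 2097 to 2966 of the 14348 to 15319 genes tested were under that unadjusted threshold. DESeq2 with all libraries called 4 of the 9, and without LOH line 23 edgeR called 2, Plk2 and Phlda3.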

How the data were processed

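Total RNA of 6 organoid cultures was sequenced after a stranded total RNA library preparation, per the labels' protocols. The submitters' processing notes name FastQC 0.11.5, STAR 2.5.2b, RSEM 1.3.0, DESeq2 1.44.0 and build GRCm38.p5, without their order or settings. The strand setting of the counting is not given in the sources used here, so genes on the opposite strand are named. The authors deposited expected counts and TPM per gene and transcript in RSEM format, and transcript shares of a gene as a percent, per the file headers. Gene symbols came from the authors' deposited normalized tables, whose values were not used.

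Libraries were grouped by title. A further allele that both groups share and a marker gene are not reported here. Expected counts were rounded, filtered with filterByExpr and TMM-scaled. The quasi-likelihood test was that of edgeR 4.0.16 (R 4.3.3) and two-sided, and p-values were adjusted by Benjamini-Hochberg over 14537 genes. Line ratios used log2 CPM with a prior count of 2. The fits were also run on simulated libraries with 200 changed genes and no line effect. That run cannot decide between the tests with and without the block. Coordinates are from GENCODE mouse release 21 (GRCm38), while the names of the deposited tables give release 16. Intervals are 95% intervals, and the floor of 3 counts covers counting error only. Nothing says that the lines came from separate mice, so p-values measure the spread between these libraries.

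Libraries with the same number come from the same organoid line, so the numbers pair the samples. The correlation of deviations from the group means across genes was -0.295, 0.00943 and 0.294 within lines 6, 23 and 34, and -0.387 to 0.296 between lines. The test without the block was the main one, because the labels describe no paired analysis.

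The 9 genes and all lists were chosen with earlier results of these data known, and no list was given a test of its own. Named were Trp53, the 9 genes, Mdm2, up to 4 called genes with the smallest p in each other list, genes called with the block alone, transcripts with at least 10% of a member's TPM in a library, and the most abundant paralog of each member. Cdkn2a, Pmaip1, the minor Cdkn1a transcripts and the cell type markers lie outside this rule. Python 3.11.15 with pandas 2.3.3, numpy 2.4.6 and matplotlib 3.10.9 made the tables and plots. Alternatives tried were scaling by RLE or by the upper quartile, a filter of at least 10 counts per library or none, protein-coding genes alone, DESeq2 1.42.0, limma 3.58.1 on log2(TPM + 1) and log2(TPM + 0.1) for genes at a TPM of 1 or more in 3 libraries, the block, and each library or line left out. Leaving out ribosomal RNA-like genes was added after seeing the data.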

Additional observations from a re-analysis of the deposited data

Results flagged for a closer look

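The organoid lines moved in opposite directions for 3 of the 10 genes compared over lines (the 9 members and Trp53). The log2 ratio of LOH to heterozygous for Plk3 was -0.37, -0.55 and 1.09 in lines 6, 23 and 34, so the highest and the lowest line lay 1.64 apart. For Gadd45a the ratios were -0.71, 0.18 and 0.68, which are 1.39 apart. Those of Sfn were 0.11, -0.80 and 0.90, which are 1.70 apart. In all 3 genes line 34 had the highest ratio. The difference between lines was not tested, since each line has 1 library per genotype.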

How the results depend on the processing

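Over 19 alternatives the median log2 fold change of the 9 members stayed below 0 (-1.23 to -0.23, the latter without both libraries of line 6), and the count of members called was 4 or 3 in 13 of them. Left-out libraries or lines gave 0 to 4 called members and 0 to 9 other p53 targets; without LOH line 23 it was 2 members and 3 other targets, without LOH line 34 4 and 4. The replicate block left 1 of the other p53 targets called and changed the call of Ccng1 alone among the members. DESeq2 called 2281 of all genes, limma on log2(TPM + 1) 1911 and on log2(TPM + 0.1) 1753, against 757 by edgeR, and the numbers called lower were 894, 1631, 1486 and 241 in that order, with the median of all genes at -0.35 and -0.42 on the TPM scales. DESeq2 called 9 other p53 targets (8 lower, and Pmaip1 higher), 5 cell cycle genes and 6 immediate early genes, against 6, 1 and 2 by edgeR. All 9 members had counts above the floor of 3 in every library, the lowest being 39 for Phlda3 in LOH line 6. The part of sequencing depth in these values was not tested. Among the genes named individually in edgeR results, each recomputed under the alternatives, signs turned for 5, which passed in no alternative: with limma on log2(TPM + 1) the values were -0.27 for Plk3, -0.32 for Gadd45a, -0.30 for Sfn, -0.24 for Ywhaz and -0.0597 for Phlda1, and with log2(TPM + 0.1) -0.34, -0.38, -0.32, -0.24 and -0.0625. Leaving out libraries gave log2 fold changes of -0.48 to 0.57 for Plk3, -0.22 to 0.49 for Gadd45a, -0.38 to 0.60 for Sfn, -0.0698 to 0.30 for Ywhaz and -0.0699 to 0.75 for Phlda1. The cause of these changes was not tested.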
